A study of Mus musculus with 49 samples.

Results

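The genes described here are 9 genes of niche homing and adhesion: Cxcr4, Selplg, Cd44, Itga4, Itga5, Itgb1, Itgb3, Alcam and Thbs1. They were taken by name from a table of 38253 mouse genes, and the Ensembl identifier of each of the 9 was matched in the annotation. Transcript levels were measured by RNA sequencing as FPKM, fragments scaled to transcript length and to the library's mapped fragments, in 49 samples of bone marrow cells and of leukaemias derived from them. The mice were wild type C57BL/6J animals aged 6 to 12 weeks. There were 30 samples of normal cells. Stem cells were either long-term (5 samples, LT-HSC) or short-term (5 samples, ST-HSC). Progenitors were multipotent (6 samples, MPP), common myeloid (5 samples, CMP), of the granulocyte and macrophage lineages (5 samples, GMP) or of the megakaryocyte and erythroid lineages (4 samples, MEP). The other 19 were leukaemias started by the MLL-AF9 fusion (MA9) in a known normal cell, with 3 from ST-HSC (STHSC:MA9), 6 from MPP (MPP:MA9), 4 from CMP (CMP:MA9) and 6 from GMP (GMP:MA9).

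Normal cells were sorted from marrow without lineage markers, and by Sca-1, c-Kit, CD150, CD34 and Fcγ receptor. Leukaemias followed transplantation of cells transduced with a retrovirus carrying MLL-AF9 and green fluorescent protein into sublethally irradiated mice, and green bulk cells were sorted from spleen, although the tissue label of all samples reads bone marrow. Organ, transplantation, irradiation and transformation therefore cannot be told apart in a comparison of a leukaemia with a normal cell, and the fusion was expressed from a retroviral vector and not from its own locus. Each mouse was a replicate.

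As background, blood stem cells are held in the marrow by the chemokine CXCL12, which binds the receptor CXCR4, and by integrins, which bind matrix and vascular proteins. An integrin is a pair of an α and a β chain: α4β1 (Itga4 with Itgb1) binds VCAM-1 and fibronectin, α5β1 (Itga5 with Itgb1) binds fibronectin, and β3 (Itgb3) pairs with αIIb or αV. PSGL-1 (Selplg) binds selectins on vessel walls, CD44 binds hyaluronan, ALCAM binds CD6 and other ALCAM molecules, and thrombospondin 1 (Thbs1) is a secreted matrix protein that binds CD36, CD47 and integrins.

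Promoter sequence is shown for 3 genes: Cxcr4 and Cd44, which were higher in all 4 leukaemias, and Itgb1, which was called in no comparison. The sequences are the 250 bases before the annotated start in RefSeq (build GRCm38.p6), printed 5′ to 3′ on the gene's strand, from chr1:128592300-128592549 on the minus strand for Cxcr4, chr2:102901666-102901915 on the minus strand for Cd44 and chr8:128685404-128685653 on the plus strand for Itgb1. Capitals mark matches, on either strand, of the core GAGGAA bound by PU.1-type factors and of the GC box GGGCGG.
Cxcr4: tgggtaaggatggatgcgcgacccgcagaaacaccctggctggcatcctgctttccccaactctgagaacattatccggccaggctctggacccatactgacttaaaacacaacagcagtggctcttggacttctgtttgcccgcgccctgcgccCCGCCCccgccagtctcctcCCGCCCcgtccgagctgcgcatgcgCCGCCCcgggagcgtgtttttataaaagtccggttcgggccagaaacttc
Cd44: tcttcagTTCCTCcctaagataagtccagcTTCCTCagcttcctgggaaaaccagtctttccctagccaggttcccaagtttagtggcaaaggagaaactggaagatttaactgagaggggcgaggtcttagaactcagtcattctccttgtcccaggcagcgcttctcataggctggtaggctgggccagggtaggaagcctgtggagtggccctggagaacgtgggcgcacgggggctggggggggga
Itgb1: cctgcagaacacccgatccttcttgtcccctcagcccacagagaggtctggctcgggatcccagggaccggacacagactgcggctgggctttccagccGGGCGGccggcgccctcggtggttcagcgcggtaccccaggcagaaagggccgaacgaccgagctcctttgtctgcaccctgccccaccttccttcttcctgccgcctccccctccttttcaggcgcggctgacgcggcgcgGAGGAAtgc
The Cxcr4 sequence held 3 GC boxes, the Cd44 sequence held 2 GAGGAA cores and no GC box, and the Itgb1 sequence held 1 of each. Of 32851 RefSeq promoters searched in the same way, 32.7% held a GC box and 23.3% held a GAGGAA core. The RUNX motif TGTGGT (14.0% of promoters) was found once, in Itga4, and the E-box CACGTG (6.02%) and the AP-1 motif TGAGTCA (4.46%) were in none of the 6 matched genes, which also included Itga5 and Alcam. A match is a run of letters and was not tested for binding. Selplg, Itgb3 and Thbs1 were not in the promoter table.

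Across the series, 15282 to 17852 genes were above 0 in a sample and mitochondrial genes made up 12.5% to 36.7% of the summed FPKM. Library totals are unknown, and the steps between low values put relative depth between 0.487 (LT-HSC replicate 5) and 1.51 (CMP replicate 2). Kit, used in the sort, was between 43.2 and 152 FPKM in normal cells and between 0.33 and 5.94 in leukaemias, so transcripts of this sort marker were low in every leukaemia. Mpo was at 10745 to 14354 FPKM in GMP and at most 4292 in other normal cells, and Gata1 was highest in MEP (49.5 to 55.3), as the labels of these groups would have it. A list of 6 granulocyte genes summed to 62595 and 26287 FPKM in LT-HSC replicates 4 and 5, and to 36582 and 7353 in ST-HSC replicates 4 and 5, against 19.1 to 1102 in the other 6 samples of those groups, although the lineage sort includes a granulocyte marker. A list of 5 erythroid genes reached 51017 FPKM in LT-HSC and 27598 in ST-HSC, and was 10.04 to 577 in leukaemias. By the granulocyte sum, replicates 4 and 5 of LT-HSC and ST-HSC stand apart within their groups. They are called the 4 samples with granulocyte RNA below, and results that rest on them are given with and without them. The granulocyte sum was also 1656 to 10959 FPKM in GMP. The median erythroid sum of ST-HSC was 4312 FPKM, so high values there were not limited to replicates 4 and 5. The 6 granulocyte genes were abundant in all leukaemias, with sums of 730 to 42691 FPKM. Of 6 macrophage genes the sum was 33.3 to 54.2 FPKM in leukaemias and 0 to 18.02 in normal cells, mostly through Adgre1 (30.8 to 52.8 in leukaemias), while Cd5l was at or below 0.14 in every leukaemia. Sums of 4 B cell genes were 12.1 to 64.1 FPKM in leukaemias and 9.93 to 133 in normal cells, and sums of 4 T cell genes were 0 to 3.89 and 0.12 to 17.6. The part of other cell types in the results below was not tested, and in bulk samples fewer cells of a type and less RNA per cell cannot be told apart.

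The first question was whether leukaemias differed from the normal cell they arose in. Differences are given as log2 changes of FPKM + 1, with standard error (SE) and Benjamini-Hochberg adjusted p from limma fitted to 12600 genes, and a gene is called where adjusted p was below 0.05 and the change was above 1 in size. Higher in the leukaemia were Cxcr4, Selplg, Cd44 and Thbs1 in STHSC:MA9, Cxcr4, Selplg, Cd44 and Itgb3 in MPP:MA9, Cxcr4 and Cd44 in CMP:MA9, and Cxcr4, Cd44 and Itgb3 in GMP:MA9. Lower was Itgb3 in STHSC:MA9, the 1 call in that direction. The counts of higher genes were thus 4, 4, 2 and 3 of 9, beside 12.3%, 13.5%, 13% and 13.5% of all genes tested. The 9 genes were chosen with earlier results of these data known, so these counts are not independent evidence. Lower calls took 11.9%, 13.6%, 14.8% and 8.87% of all genes. The median change over the 9 genes was 0.03, 1.08, 0.82 and 0.86 in the 4 comparisons, beside -0.04, -0.09, -0.16 and 0.00 over all genes.

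**Figure D1:**
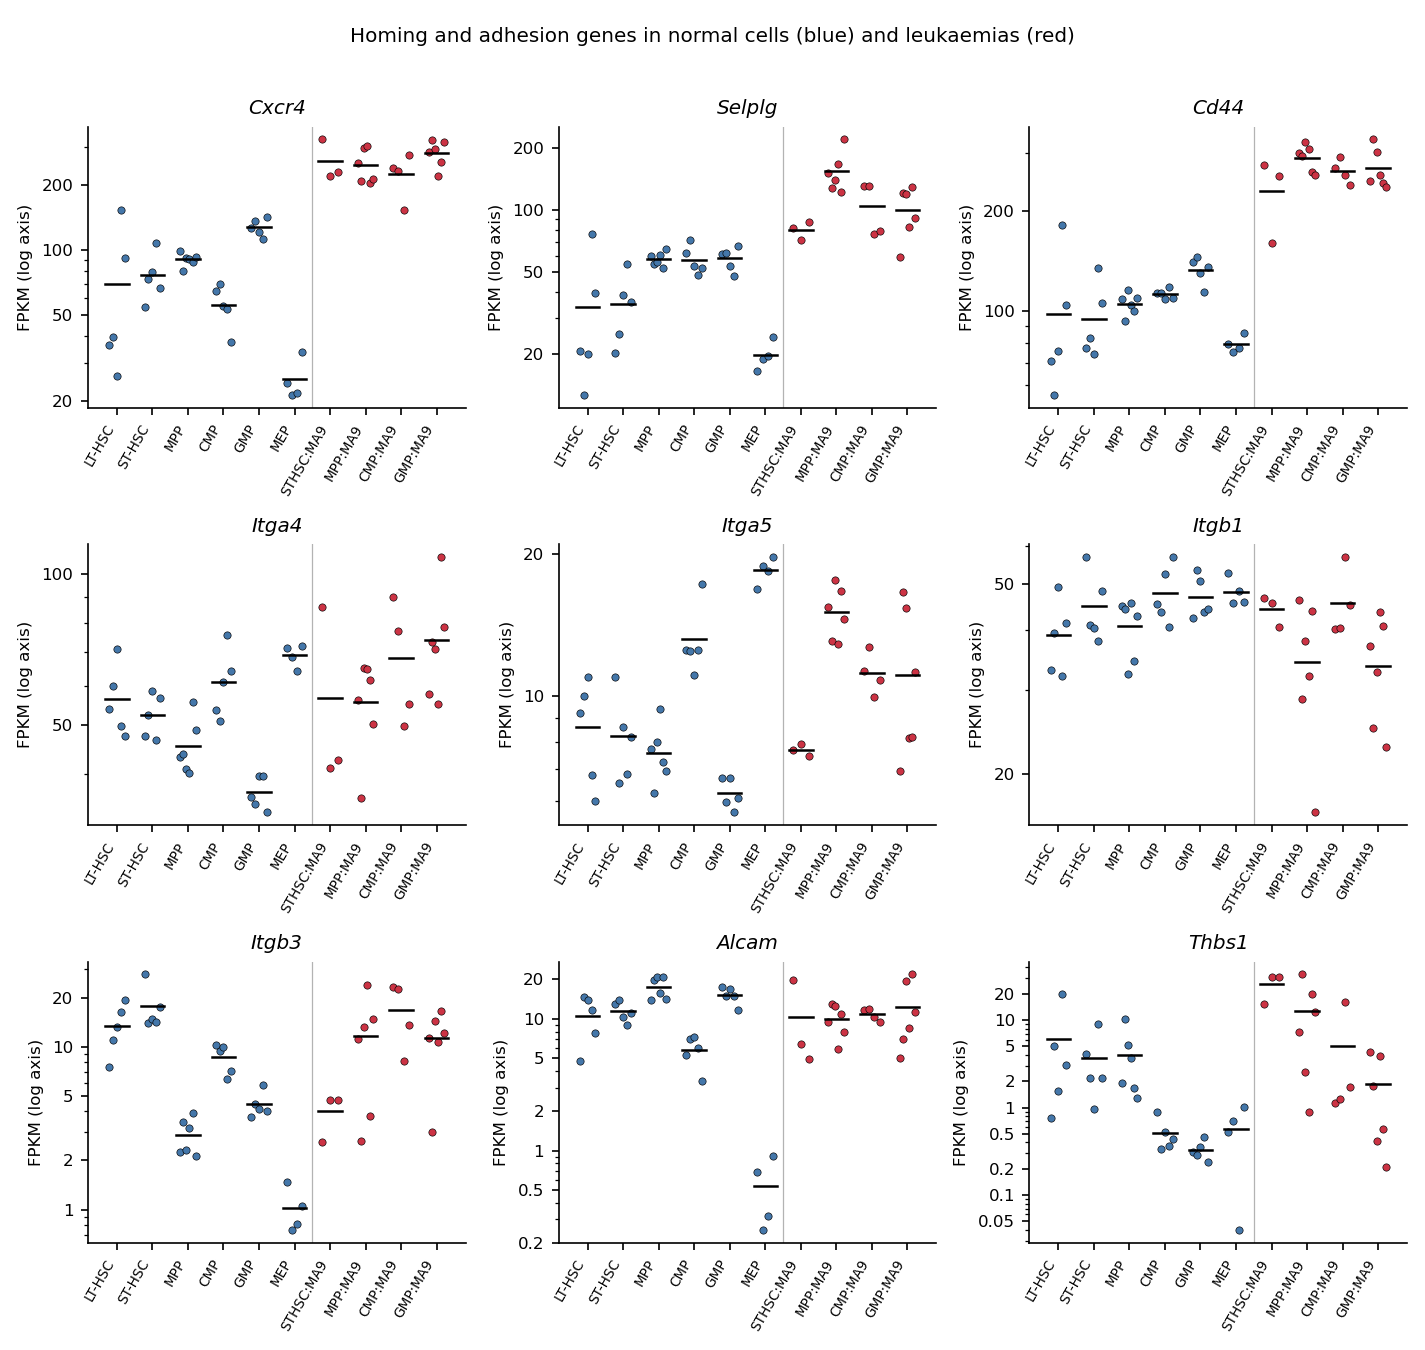
Level of each of the 9 genes in FPKM (log axis) by group, with 1 point per sample, blue for normal cells and red for leukaemias, and a bar at the group mean. Cxcr4 and Cd44 lie higher in every leukaemia group than in its normal cell, Itgb1 varies little between groups, and Alcam and Itgb3 are lowest in MEP.

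The 3 surface receptors were the group with the most calls. Cxcr4 (ENSMUSG00000045382, minus strand of chromosome 1, 130484776 to 130488870 in NCBIM37, which is mm9) was the chemokine receptor of the set. In STHSC:MA9 it was at 326, 220 and 231 FPKM, against 54.4, 73.2, 79.5, 108 and 66.8 in ST-HSC. In CMP:MA9 it was at 240, 232, 153 and 276, against 64.7, 69.5, 54.9, 53.3 and 37.7 in CMP. These groups did not overlap, and the lowest leukaemia of each was above the highest normal sample. In MPP:MA9 the lowest, median and highest levels were 206, 234 and 302, against 80.5, 91.7 and 99.1 in MPP. In GMP:MA9 they were 220, 290 and 324, against 127, 136, 122, 112 and 142 in the 5 GMP samples. Again all leukaemias lay above all samples of their normal cell.

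The change in Cxcr4 was 1.76 (SE 0.19, adjusted p = 1.06e-09) in STHSC:MA9, 1.42 (SE 0.15, adjusted p = 2.91e-10) in MPP:MA9, 1.98 (SE 0.17, adjusted p = 6.41e-12) in CMP:MA9 and 1.13 (SE 0.16, adjusted p = 2.10e-07) in GMP:MA9. Mean levels were 3.39, 2.73, 4.02 and 2.21 times those of the normal cell. The 4 changes differed from each other in size (adjusted p = 0.0175, F test of limma), beside 38% of all genes for which they did. With GC content and length corrected for, this difference between changes was no longer past the threshold (adjusted p = 0.107). The 4 leukaemia groups had mean levels of 225 to 283 FPKM, whereas the 4 normal cells ranged from 56.0 in CMP to 128 in GMP, and no pair of leukaemia groups was called.

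Cd44 (ENSMUSG00000005087, minus strand of chromosome 2, 102651298 to 102741822), the hyaluronan receptor, showed the same separation. Its levels were 275, 160 and 256 FPKM in STHSC:MA9 against 77.5, 82.9, 74.1, 135 and 106 in ST-HSC. In MPP:MA9 the lowest, median and highest were 256, 297 and 323, against 93.6, 107 and 116 in MPP. No leukaemia overlapped its normal cell in either pair.

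In CMP:MA9 Cd44 was at 270, 291, 257 and 240, against 113, 113, 108, 118 and 110 in CMP. In GMP:MA9 the lowest, median and highest were 237, 252 and 330, against 141, 146, 130, 114 and 136 in GMP. The groups again did not overlap. The changes were 1.27 (SE 0.15, adjusted p = 1.02e-08), 1.45 (SE 0.12, adjusted p = 6.68e-13), 1.22 (SE 0.14, adjusted p = 2.50e-09) and 1.00 (SE 0.13, adjusted p = 2.86e-08) from STHSC:MA9 to GMP:MA9. The last was called at 1.0029, just past the limit, and fell under it without GMP replicate 3 or 4 or GMP:MA9 replicate 2 or 3 (0.94 to 0.99). The 4 changes did not pass the test of a difference (adjusted p = 0.171), but did without the 4 samples with granulocyte RNA (adjusted p = 0.0357).

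Selplg (ENSMUSG00000048163, minus strand of chromosome 5, 114267807 to 114280510), which encodes the selectin ligand PSGL-1, was higher in STHSC:MA9 at 81.7, 71.4 and 87.3 FPKM, against 20.3, 25.0, 38.8, 54.6 and 36.0 in ST-HSC (change 1.25, SE 0.23, adjusted p = 3.28e-05). In MPP:MA9 the lowest, median and highest were 122, 145 and 219, against 52.5, 57.9 and 64.9 in MPP (change 1.37, SE 0.19, adjusted p = 6.92e-08). Neither pair overlapped. In CMP:MA9 it was at 131, 130, 76.8 and 79.0, against 62.0, 71.2, 53.5, 48.2 and 52.1 in CMP, also without overlap, with a change of 0.82 (SE 0.22, adjusted p = 0.00147) that was under the limit of size. In GMP:MA9 replicate 1, at 59.4, lay within the range of GMP (47.9 to 67.1), the other 5 were at 83.0 to 130, and the change was 0.73 (SE 0.19, adjusted p = 0.00160).

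The ST-HSC and LT-HSC samples with granulocyte RNA held the top 2 places of their group for Cxcr4, Cd44 and Selplg, except ST-HSC replicate 5, which lay lower for Cxcr4 (66.8) and Selplg (36.0). Without these 4 samples the changes in STHSC:MA9 were 1.89 for Cxcr4, 1.51 for Cd44, 1.53 for Selplg, -1.96 for Itgb3 and 3.02 for Thbs1, so all 5 calls stood.

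**Figure D2:**
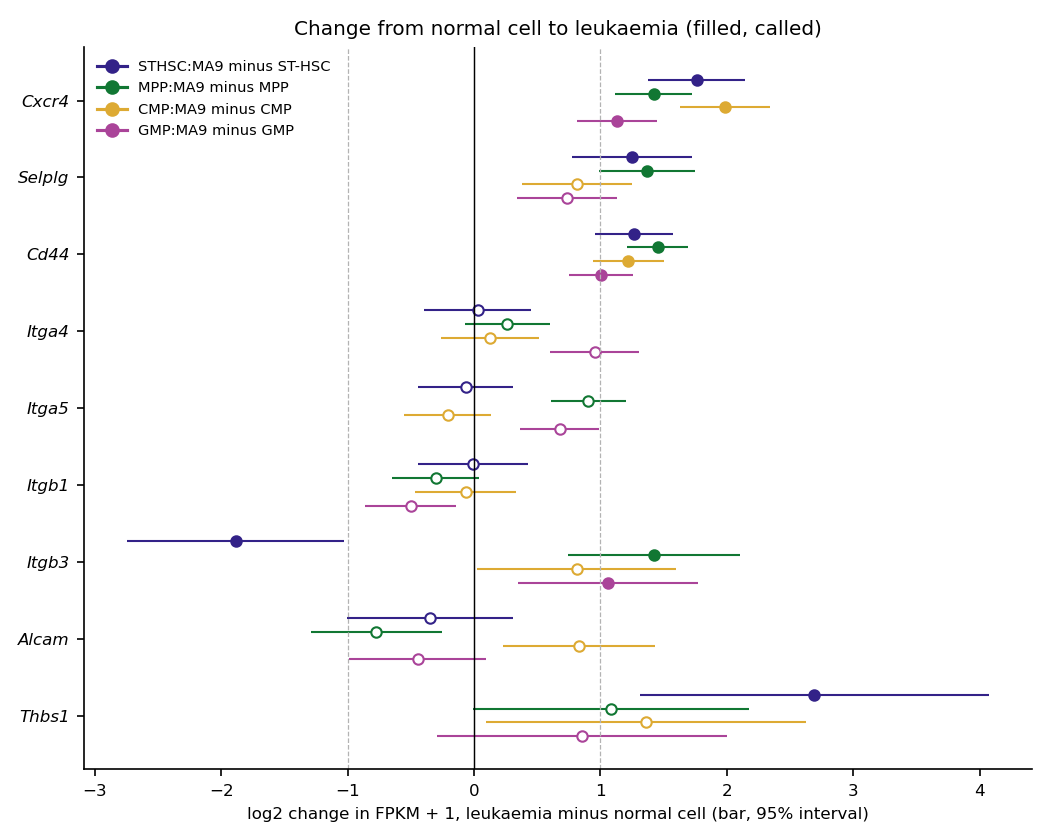
Log2 change of FPKM + 1 from the normal cell to the leukaemia for the 9 genes, 1 colour per leukaemia, with 95% confidence intervals as bars and filled points for calls (adjusted p below 0.05 and a change above 1 in size, dashed lines). Cxcr4 and Cd44 are filled in all 4 comparisons, and Itgb3 is filled on both sides of 0.

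The β1 integrins changed less. Itgb1 (ENSMUSG00000025809, plus strand of chromosome 8, 131209554 to 131257100), the shared β1 chain, was at 46.8, 45.6 and 40.6 FPKM in STHSC:MA9 and at 40.2, 40.5, 57.0 and 45.1 in CMP:MA9. In MPP:MA9 it ranged from 16.6 to 46.2 and in GMP:MA9 from 22.8 to 43.7, while the 30 normal samples lay between 32.1 and 57.0. All 4 leukaemias overlapped their normal cell. The changes were -0.01, -0.30, -0.07 and -0.50, of which the last passed the adjusted p (0.0158, SE 0.18) but not the limit of size.

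Itga4 (ENSMUSG00000027009, plus strand of chromosome 2, 79095583 to 79173280), the α4 chain, was at 57.7, 73.3, 70.8, 55.2, 108 and 78.3 FPKM in GMP:MA9 against 36.0, 35.0, 39.8, 39.7 and 33.6 in GMP. These groups did not overlap, with a change of 0.95 (SE 0.17, adjusted p = 1.65e-05), just under the limit of size and past it without GMP:MA9 replicate 1 (1.02) or 4 (1.03). In the other 3 leukaemias the ranges overlapped and the changes were 0.03, 0.26 and 0.13. The 4 changes differed (adjusted p = 0.0146), but not with GC content and length corrected for (adjusted p = 0.248). GMP had the lowest level of Itga4 of all 10 groups, and the only gap between neighbours in the order of levels was between MPP (40.3 to 55.8) and GMP (33.6 to 39.8). Of the 31-base windows of Itga4, 9.24% also occur in other genes and it overlaps Cerkl on the other strand, so its level is less certain than those of the other 8 genes, of which at most 1.14% of windows are shared.

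Itga5 (ENSMUSG00000000555, minus strand of chromosome 15, 103174720 to 103197194), the α5 chain, differed by origin. In MPP:MA9 it was at 15.5, 13.1, 17.6, 12.9, 16.7 and 14.6 FPKM, above all 6 MPP samples (6.22 to 9.40), with a change of 0.91 (SE 0.15, adjusted p = 1.71e-06). In GMP:MA9 it was at 6.94, 16.7, 15.4, 8.15, 8.20 and 11.2, above all 5 GMP samples (5.67 to 6.72), with a change of 0.68 (SE 0.15, adjusted p = 0.000287). Neither passed the limit of size. In STHSC:MA9 the 3 values, 7.70, 7.93 and 7.48, lay within the range of ST-HSC (6.56 to 10.96), and in CMP:MA9 (9.94 to 12.7) they overlapped CMP (11.1 to 17.3), with changes of -0.07 and -0.21. The 4 changes differed (adjusted p = 0.000216). The α4 chain stood above the α5 chain in every sample, with a median ratio of FPKM between 3.62 in MEP and 6.87 in GMP:MA9.

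Itgb3 (ENSMUSG00000020689, plus strand of chromosome 11, 104469370 to 104531790), the β3 chain of platelets and stem cells, was the 1 gene of the 9 called in both directions. In STHSC:MA9 it was at 2.58, 4.71 and 4.71 FPKM, below all ST-HSC samples, at 27.8, 14.0, 14.9, 14.2 and 17.4 (change -1.88, SE 0.42, adjusted p = 0.000336). In MPP:MA9 it was at 11.2, 2.64, 13.2, 23.9, 3.73 and 14.7, and 4 of these 6 lay above all MPP samples (2.14 to 3.91; change 1.42, SE 0.33, adjusted p = 0.000372). Replicates 2 and 5 of MPP:MA9 stayed in the range of MPP.

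In GMP:MA9 Itgb3 was at 11.4, 2.99, 14.4, 10.7, 16.5 and 12.1 against 3.72, 4.46, 4.17, 5.81 and 4.05 in GMP (change 1.06, SE 0.35, adjusted p = 0.00990). Of the 6 leukaemias 5 were above all GMP samples and replicate 2 was below them, and the change was under the limit without GMP:MA9 replicate 3 (0.97) or 5 (0.93) or with GC content and length corrected for (0.92). In CMP:MA9 it was at 23.1, 22.6, 8.21 and 13.5 against 10.2, 9.46, 10.02, 6.29 and 7.08 in CMP, not called with all samples (change 0.81, SE 0.39, adjusted p = 0.0696) but called without CMP:MA9 replicate 3 (1.10, adjusted p = 0.0220). The 4 changes differed (adjusted p = 4.37e-05). The leukaemias from ST-HSC, the normal cell with the highest mean (17.7), thus had the lowest mean of the 4 leukaemias (4.00), although no pair of leukaemia groups was called for Itgb3.

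The α partners of β3 moved apart. Itga2b, which encodes αIIb of platelets and megakaryocytes, was between 2.56 and 101 FPKM in normal cells and between 0.09 and 6.19 in leukaemias, with changes of -5.71 in STHSC:MA9, -3.09 in MPP:MA9, -4.26 in CMP:MA9 and -1.58 in GMP:MA9, all called. Itgav, which encodes αV, was between 1.14 and 13.9 in normal cells and between 7.41 and 24.3 in leukaemias, and was called higher in CMP:MA9 (1.67) and GMP:MA9 (1.33). The median ratio of Itgav to Itga2b was 0.127 to 0.731 in the 6 normal groups and 15.2 to 29.0 in the 4 leukaemia groups, as a description over groups. A list of 6 platelet and megakaryocyte genes, which includes Itga2b, summed to 306 to 1290 FPKM in ST-HSC, 22.5 to 38.2 in MPP, 181 to 272 in CMP and 6.49 to 59.97 in GMP, against 1.17 to 12.7 in leukaemias, and the part of platelet RNA in the change of Itgb3 was not tested.

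**Figure D3:**
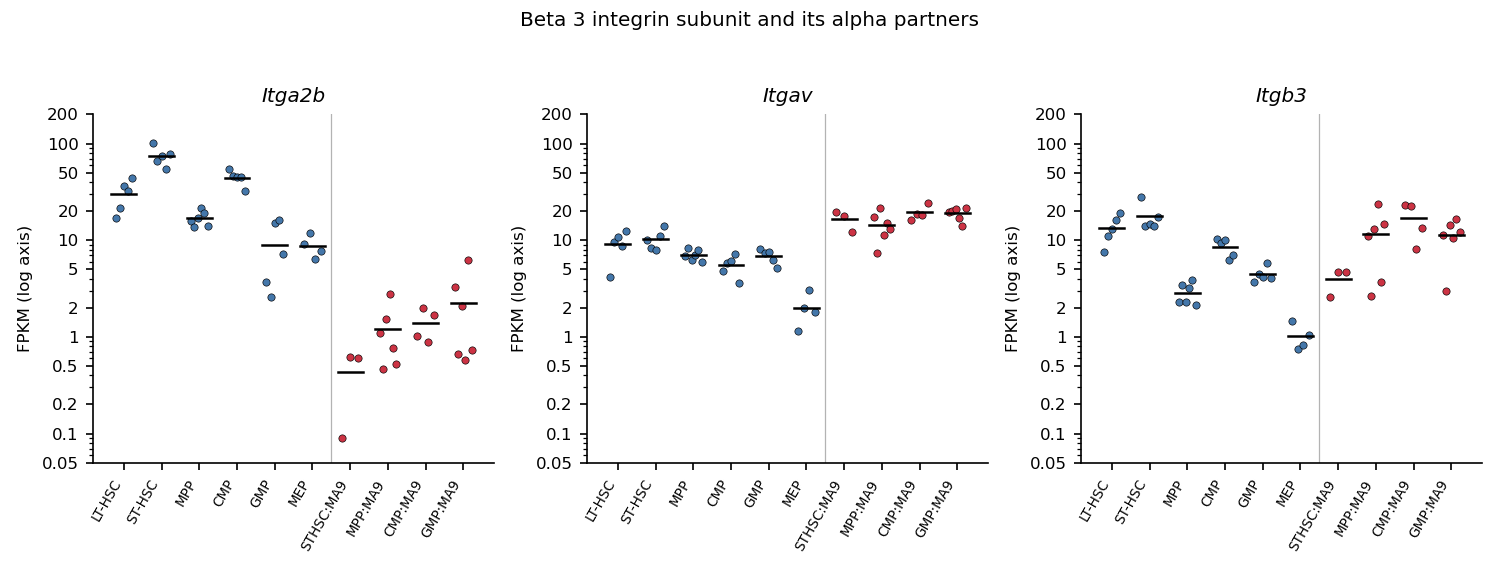
Levels in FPKM (log axis) of Itga2b, Itgav and Itgb3 by group, with 1 point per sample, blue for normal cells and red for leukaemias, and a bar at the group mean. Itga2b is at or below 6.19 in leukaemias, Itgav is at or above 7.41 in them, and Itgb3 ranges widely within MPP:MA9 and CMP:MA9.

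Alcam was named by the study for chromatin near it in these leukaemias, and Thbs1 is in its list of genes that differed between leukaemias in these samples, so the values of Thbs1 are not independent evidence of a difference. Alcam (ENSMUSG00000022636, minus strand of chromosome 16, 52249109 to 52454187), an adhesion molecule of the immunoglobulin type, was at 19.6, 6.44 and 4.96 FPKM in STHSC:MA9 and at 11.7, 11.8, 10.4 and 9.40 in CMP:MA9. All CMP:MA9 samples were above all CMP samples (3.36 to 7.31; change 0.83, SE 0.30, adjusted p = 0.0162), whereas all 6 MPP:MA9 samples (5.92 to 12.9) were below all 6 MPP samples (13.9 to 20.6; change -0.77, SE 0.26, adjusted p = 0.00882). Neither passed the limit of size, and the 4 changes differed (adjusted p = 0.00894). In GMP:MA9 the levels, 5.00 to 21.8, spread on both sides of GMP (11.7 to 17.4; change -0.45, adjusted p = 0.154). The 4 leukaemia means, 9.93 to 12.2, lay closer together than the 4 normal means, 5.80 to 17.4.

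Thbs1 (ENSMUSG00000040152, plus strand of chromosome 2, 117937612 to 117952869), the secreted matrix protein, had the widest spread. In STHSC:MA9 it was at 15.4, 31.03 and 31.5 FPKM, above all ST-HSC samples, at 4.06, 2.19, 0.96, 8.96 and 2.17 (change 2.69, SE 0.68, adjusted p = 0.00126). In MPP:MA9 it was at 7.35, 33.4, 2.52, 0.89, 19.9 and 12.4, and 3 of the 6 exceeded all MPP samples (1.28 to 10.4; change 1.08, SE 0.54, adjusted p = 0.0789). MPP:MA9 thus held both the highest value of Thbs1 in any sample and a value below every MPP sample.

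In CMP:MA9 Thbs1 was at 1.12, 1.25, 15.9 and 1.73, all above CMP (0.34 to 0.90; change 1.36, SE 0.63, adjusted p = 0.0594). In GMP:MA9 it was at 4.31, 1.75, 0.41, 3.93, 0.57 and 0.21 against 0.24 to 0.46 in GMP (change 0.86, SE 0.56, adjusted p = 0.196), and 4 of the 6 lay above all GMP samples. These 2 differences were not past the threshold, and the 4 changes were not shown to differ (adjusted p = 0.291). The change in CMP:MA9 was called with a pseudocount of 0.1 (2.17, adjusted p = 0.0238) and without CMP:MA9 replicate 1 or 2 or MPP:MA9 replicate 2 or 4 (adjusted p = 0.0386 to 0.0445), and that in MPP:MA9 was called without MPP replicate 2, MPP:MA9 replicate 3 or MPP:MA9 replicate 4 (1.35 to 1.53).

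The second question was whether the leukaemias of the 4 origins differed from each other. Of 12128 genes tested, the 6 pairs called 2.88% (STHSC:MA9 against MPP:MA9), 0.363% (STHSC:MA9 against CMP:MA9), 0.536% (STHSC:MA9 against GMP:MA9), 0.115% (MPP:MA9 against CMP:MA9), 2.23% (MPP:MA9 against GMP:MA9) and 0.206% (CMP:MA9 against GMP:MA9). Of the 9 genes only Thbs1 was called, higher in STHSC:MA9 than in GMP:MA9 by 3.42 (SE 0.80, adjusted p = 0.0450), with every STHSC:MA9 sample above every GMP:MA9 sample. This call was lost with the replicate block (3.26, adjusted p = 0.160). Same-numbered STHSC:MA9 and GMP:MA9 samples did not deviate together (mean correlation -0.162), so the block cannot tell how firm the call is. The call was also lost with a pseudocount of 0.1 (adjusted p = 0.0511) and without any 1 of 11 of the 19 leukaemias (adjusted p = 0.0512 to 0.252). These were STHSC:MA9 replicates 2 and 3, GMP:MA9 replicates 2, 3, 5 and 6, CMP:MA9 replicates 1, 2 and 4, and MPP:MA9 replicates 1 and 6. Thbs1 was also called between STHSC:MA9 and CMP:MA9 (3.45, adjusted p = 0.0468) without CMP:MA9 replicate 3, and between MPP:MA9 and GMP:MA9, where it was 1.91 (SE 0.66, adjusted p = 0.0547) with all samples, without CMP:MA9 replicate 3, GMP:MA9 replicate 1 or 4 or MPP:MA9 replicate 3 or 4 (adjusted p = 0.0162 to 0.0477). The pairs share samples. In the 5 pairs with 0 calls by limma, 3, 3, 1, 3 and 0 of the 9 genes were below an unadjusted p of 0.05. So were 20, 8, 7, 14 and 6 of 47 other homing and adhesion genes, a list described below. The share of all genes below it was not counted.

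Selplg was lower in STHSC:MA9 than in MPP:MA9 by an amount under the limit of size (-0.91, SE 0.24, adjusted p = 0.0216), and all 3 STHSC:MA9 samples, at 71.4 to 87.3 FPKM, were below all 6 MPP:MA9 samples. Itga5 gave -0.88 (SE 0.21, adjusted p = 0.0125) in the same pair, at 7.48 to 7.93 against 12.9 to 17.6. In the F test of level across the 4 origins, Thbs1 (adjusted p = 0.0258), Itga5 (adjusted p = 0.0353) and Selplg (adjusted p = 0.0397) passed, 3 of 9 beside 13.3% of all genes. Thbs1 is in the study's list of genes that differed between these leukaemias, so its results here and in the pairs are not independent evidence. None of the 3 passed with the replicate block (adjusted p = 0.105, 0.0680 and 0.132) or with GC content and length corrected for (adjusted p = 0.0698, 0.537 and 0.399). Mean correlations of same-numbered samples in the leukaemia pairs lay between -0.210 and 0.138, so the block cannot decide here. Itga5 and Selplg have the highest GC contents of the 9 genes, at 57.5% and 55.6%.

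Within the leukaemia groups, Thbs1 ran with granulocyte genes, Itgb3, Cxcr4, Itga4 and Selplg ran against them, and the other 4 genes had smaller values. Over the 19 leukaemias, with each group's mean subtracted, the log2 sum of the 6 granulocyte genes had a Pearson correlation of 0.82 (Spearman 0.71) with Thbs1, -0.65 (-0.65) with Itgb3, -0.64 (-0.63) with Cxcr4, -0.51 (-0.55) with Itga4 and -0.48 (-0.53) with Selplg. Without MPP:MA9 replicate 4 and CMP:MA9 replicate 3, the samples farthest out, the Pearson values were 0.70, -0.52, -0.48, -0.44 and -0.43. With all 19 samples the other 4 genes lay between -0.19 (Itga5) and 0.07 (Itgb1), and without those 2 samples between -0.34 (Alcam) and -0.03 (Itgb1). Both values come from the same library and total, and the relation is a description. CMP:MA9 replicate 3 had the highest granulocyte sum of its group (27798 FPKM, others 1185 to 6817) together with the highest Thbs1 and the lowest Cxcr4, Itga4, Itgb3 and Selplg, and MPP:MA9 replicate 2 had the highest of its group (40243) with the highest Thbs1 and the lowest Itgb3. GMP:MA9 replicate 6 went the other way: it had the highest granulocyte sum of its group (13234) with the lowest Thbs1 of all leukaemias (0.21), while Itgb3 (12.1) and Cxcr4 (316) were above their group means (11.3 and 283). In STHSC:MA9, replicate 3 had the highest sum (42691), with Thbs1 at 31.5 beside 31.03 and 15.4 in the others, and Itgb3 at 4.71, level with replicate 2. The granulocyte sums of STHSC:MA9, 16060 to 42691, lay above the 1121 to 13234 of GMP:MA9, and their part in the call for Thbs1 was not tested.

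**Figure D4:**
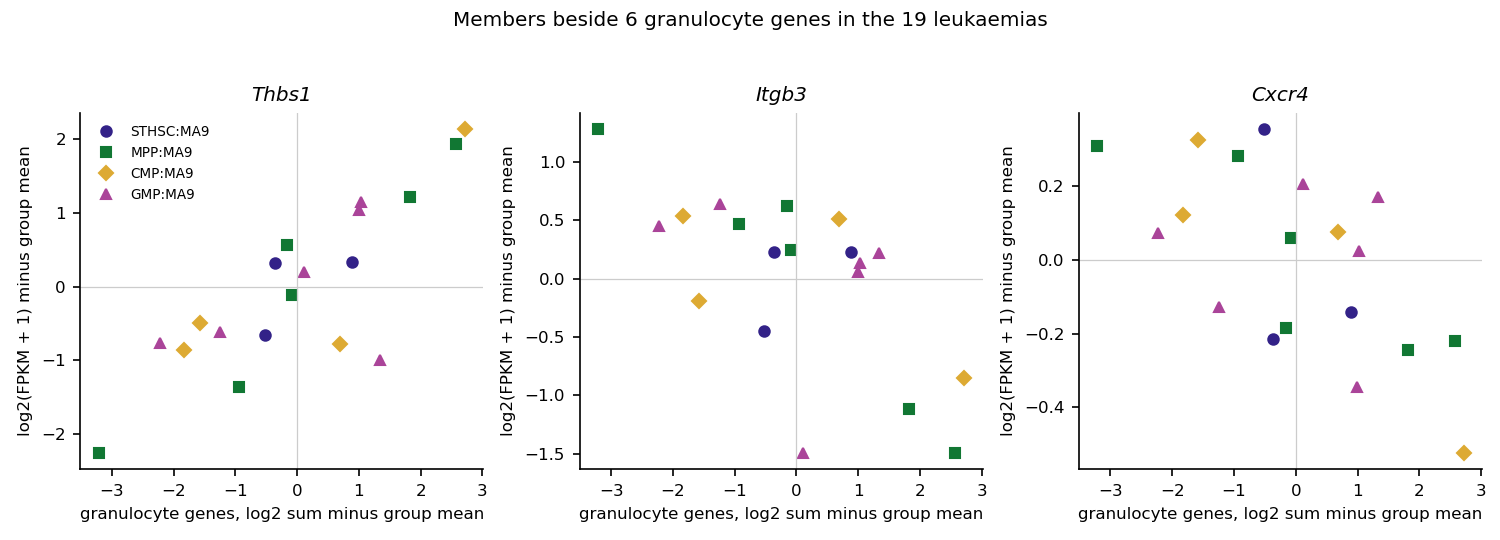
Log2(FPKM + 1) of Thbs1, Itgb3 and Cxcr4, each minus its group mean, against the log2 sum of 6 granulocyte genes minus its group mean, with 1 point for each of the 19 leukaemias and 1 symbol per group. Pearson values are 0.82 for Thbs1, -0.65 for Itgb3 and -0.64 for Cxcr4, and GMP:MA9 replicate 6, with the lowest Thbs1 of its group, lies off this trend.

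The third question was how the genes differed between normal cells. In the F test across the 6 groups 8 of 9 genes passed, all but Itgb1 (adjusted p = 0.132), beside 78.4% of all 12367 genes. Calls between neighbouring or branching cells took 2.26% of genes (LT-HSC against ST-HSC), 3.44% (ST-HSC against MPP), 4.32% (MPP against CMP), 11.2% (CMP against GMP), 11.8% (CMP against MEP) and 20.5% (GMP against MEP). Of the 9 genes, 0, 1, 3, 2, 4 and 5 were called in these pairs, which share samples. For LT-HSC against ST-HSC, 0 were also below an unadjusted p of 0.05 with all samples. Without the 4 samples with granulocyte RNA, 0 of the 9 were still called, while calls over all genes went from 280 to 552. With 3 samples left in each group, Cxcr4 was at 26.3 to 39.7 FPKM in LT-HSC and 54.4 to 79.5 in ST-HSC, without overlap. Itgb3 (7.5 to 13.2 against 14.0 to 27.8) did not overlap either, and the other genes overlapped. Groups of this size can separate by chance, and the share of all genes that did so was not counted.

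Alcam was lowest in MEP, at 0.69, 0.25, 0.32 and 0.91 FPKM, far below every other normal group. GMP held 17.4, 14.9, 17.0, 14.9 and 11.7, CMP held 5.35, 6.97, 7.31, 5.99 and 3.36, and MPP held 13.9 to 20.6. Alcam was higher in MPP than in CMP (1.45, SE 0.21, adjusted p = 1.60e-05), lower in CMP than in GMP (-1.27, SE 0.22, adjusted p = 3.54e-05), and higher in CMP (2.13, SE 0.23) and GMP (3.40, SE 0.23, adjusted p = 2.16e-12) than in MEP. MPP and GMP overlapped, as did LT-HSC (4.77 to 14.7) with ST-HSC (8.97 to 13.9).

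Itgb3 was highest in ST-HSC (14.0 to 27.8 FPKM) and LT-HSC (7.5 to 19.4), which overlapped. It was lower in MPP (2.14 to 3.91), higher again in CMP (6.29 to 10.2), and 0.75 to 1.47 in MEP. ST-HSC exceeded MPP by 2.24 (SE 0.20, adjusted p = 5.11e-09), MPP was below CMP by -1.31 (SE 0.20, adjusted p = 2.79e-05), and CMP and GMP exceeded MEP by 2.24 and 1.43 (SE 0.22 each). The gaps between CMP and GMP and between MPP and MEP had no overlap, whereas GMP (3.72 to 5.81) and MPP did overlap.

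Cxcr4 was lowest in MEP, at 24.3, 21.4, 21.9 and 33.7 FPKM, and highest in GMP (112 to 142), which MPP (80.5 to 99.1) did not reach. LT-HSC held 36.4, 39.7, 26.3, 154 and 92.4, of which the last 2 are the samples with granulocyte RNA, and replicate 4 was the highest of all 30 normal samples. That sample was just above the lowest leukaemia, CMP:MA9 replicate 3 at 153. Cxcr4 was called lower in CMP than in GMP (-1.20, SE 0.29, adjusted p = 0.00168) and higher in CMP (1.11, SE 0.31, adjusted p = 0.00668) and GMP (2.31, SE 0.31, adjusted p = 3.96e-07) than in MEP, though the difference of CMP from MEP was 0.94 after median-ratio scaling and 0.99 with GC content and length corrected for.

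Selplg was at 16.6, 19.1, 19.7 and 24.2 FPKM in MEP and 47.9 to 71.2 in MPP, CMP and GMP, and CMP and GMP exceeded MEP by 1.48 and 1.51 (SE 0.30 each, adjusted p = 0.000402 and 0.000148). ST-HSC was lower than MPP by -0.80 (adjusted p = 0.0404), and by -1.07 (adjusted p = 0.000106) without the samples with granulocyte RNA, which makes it a call. Cd44 varied less, with group means of 79.6 (MEP) to 133 (GMP), no call, and an F test (adjusted p = 0.0202) that did not pass after median-ratio scaling (adjusted p = 0.0738) or with GC content and length corrected for (adjusted p = 0.0690).

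Among the β1 integrins, Itga5 was highest in MEP (16.9, 18.9, 18.4 and 19.8 FPKM) and lowest in GMP (5.67 to 6.72), which did not overlap, and GMP was lower than MEP by -1.43 (SE 0.15, adjusted p = 6.98e-09). Itga4 ran the same way, at 64.0 to 71.9 in MEP and 33.6 to 39.8 in GMP, with a difference of -0.89 (SE 0.12, adjusted p = 5.29e-07) that was under the limit of size and became a call (-1.0033) with GC content and length corrected for. Itgb1 had means of 39.1 to 48.1 and every neighbouring pair in its order of levels overlapped. It passed the F test after median-ratio scaling (adjusted p = 0.00987), with GC content and length corrected for (adjusted p = 0.00875) and without LT-HSC replicate 3 (adjusted p = 0.0417).

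Thbs1 was at 0.04 to 1.02 FPKM in CMP, GMP and MEP, and at 0.77 to 20.0 in LT-HSC, ST-HSC and MPP. MPP exceeded CMP by 1.504 (SE 0.46, adjusted p = 0.0260). This call was lost without CMP replicate 5, MPP replicate 2 or MPP replicate 3 (adjusted p = 0.0601 to 0.0781). The highest value, 20.0, was that of LT-HSC replicate 4, the sample with the most granulocyte RNA, and the other 4 LT-HSC samples were at 0.77 to 5.08.

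Around the 9 genes, a list of 68 other homing and adhesion genes held 50 that passed the filter on low levels in the comparisons with normal cells. The list was chosen with earlier results of these data known, so its counts are not independent evidence about such genes. Itgax, Sele and Cxcl12 passed that filter here but not among the normal groups alone. Higher calls numbered 18, 18, 20 and 18 of 50 from STHSC:MA9 to GMP:MA9, beside 12.3%, 13.5%, 13% and 13.5% of all genes tested. Lower calls numbered 8, 7, 3 and 2, beside 11.9%, 13.6%, 14.8% and 8.87%. Median changes were 0.66, 0.71, 0.62 and 0.79, beside -0.04, -0.09, -0.16 and 0.00 over all genes. Fn1, which encodes the matrix protein fibronectin bound by α4β1 and α5β1, had the largest change in MPP:MA9 (7.68), CMP:MA9 (8.24) and GMP:MA9 (6.56), and 5.00 in STHSC:MA9. It was at 1308, 104 and 66.0 FPKM in STHSC:MA9 and at 119 to 673 in the other leukaemias, against 0.24 to 3.68 in normal cells other than the 4 samples with granulocyte RNA, where it was at 71.4, 34.4, 32.0 and 12.1. No leukaemia overlapped a normal sample outside STHSC:MA9 replicate 3, which was below LT-HSC replicate 4.

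Of the other integrin subunits, Itgam and Itga1 were among the largest changes. Itgam, the α chain of Mac-1, changed by 4.42 in MPP:MA9 and 4.45 in CMP:MA9, but CD11b, its product, was among the lineage markers used to sort normal cells, and the part of the sort in this difference was not tested. Itga1, a collagen-binding α chain, changed by 4.84 and 4.36 there, from 0.13 to 1.42 FPKM in MPP and CMP to 22.3 to 75.2 in their leukaemias. In STHSC:MA9 and GMP:MA9, Itga1 (23.9 to 55.9) and Itgam (154 to 315) also lay above all samples of the normal cell. Itgb7, which pairs with α4 in place of β1 and is in the same list of the study as Thbs1, changed by 3.47 in GMP:MA9, from 2.94 to 4.91 FPKM to 33.1 to 94.1. It was called higher in all 4 leukaemias while Itgb1 was called in none.

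Spp1, which encodes the matrix protein osteopontin, changed by 4.76 in STHSC:MA9, from 2.12 to 4.20 FPKM to 28.7, 177 and 187. Ccr1, a receptor of inflammatory chemokines, changed by 3.98 in GMP:MA9, from 0.79 to 1.04 FPKM to 19.9 to 42.5. Neither gene was particular to the origin named. In the other leukaemias every sample was also above all samples of its normal cell, at 4.92 to 62.0 for Spp1 and 18.6 to 39.3 for Ccr1. Between leukaemias, 3 of the other genes were called: Itgal, the α chain of LFA-1, was lower in STHSC:MA9 than in MPP:MA9 (-1.06, adjusted p = 0.0250), as was Itgb7 (-1.40, adjusted p = 0.0217), and Pxn, which encodes the adaptor paxillin, was higher in MPP:MA9 than in GMP:MA9 (1.04, adjusted p = 0.000470). Itgal and Itgb7 lost the call without STHSC:MA9 replicate 2 (-0.68 and -1.15) or 3 (-0.88 and -1.39), and Pxn without GMP:MA9 replicate 5 (0.97) or MPP:MA9 replicate 2 (0.91) or 6 (0.97).

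By role, counts run from the leukaemias of ST-HSC through those of MPP and CMP to those of GMP. Over all genes tested, 12.3%, 13.5%, 13% and 13.5% were called higher and 11.9%, 13.6%, 14.8% and 8.87% lower. The genes of each role were chosen with earlier results of these data known. Of 11 other integrin subunits tested, 6, 6, 8 and 8 were higher and 2, 2, 1 and 1 lower. Of 10 genes of integrin activation and linkage to actin, 4, 5, 3 and 2 were higher and none lower. Of 7 selectins and enzymes that make their ligands, 2, 2, 3 and 1 were higher and 1, 1, 1 and 0 lower. Of 6 genes of chemokine and lipid guidance, 2, 3, 2 and 4 were higher and 2, 1, 1 and 0 lower. Of 8 ligands and matrix genes, 3, 2, 3 and 3 were higher and none lower. Of 8 other adhesion molecules of stem and progenitor cells, 1, 0, 1 and 0 were higher and 3, 3, 0 and 1 lower.

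Cxcl12, the ligand of CXCR4, was chosen after its values were seen: it was called in GMP:MA9 (1.51, SE 0.64, adjusted p = 0.0423) through replicate 2 at 35.5 FPKM, with the other 5 at 0.07 to 2.16, and the call was lost without that replicate (0.79, adjusted p = 0.213). It was also lost without GMP:MA9 replicate 3 (adjusted p = 0.0599), without any 1 of the 5 GMP samples (adjusted p = 0.0524 to 0.0675) and with GC content and length corrected for (1.31, adjusted p = 0.0759). A list of 6 endothelial and stromal genes summed to 10.2 FPKM in replicate 2 and to 0.13 to 0.45 in the other 5, and its part in the call was not tested.

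**Figure D5:**
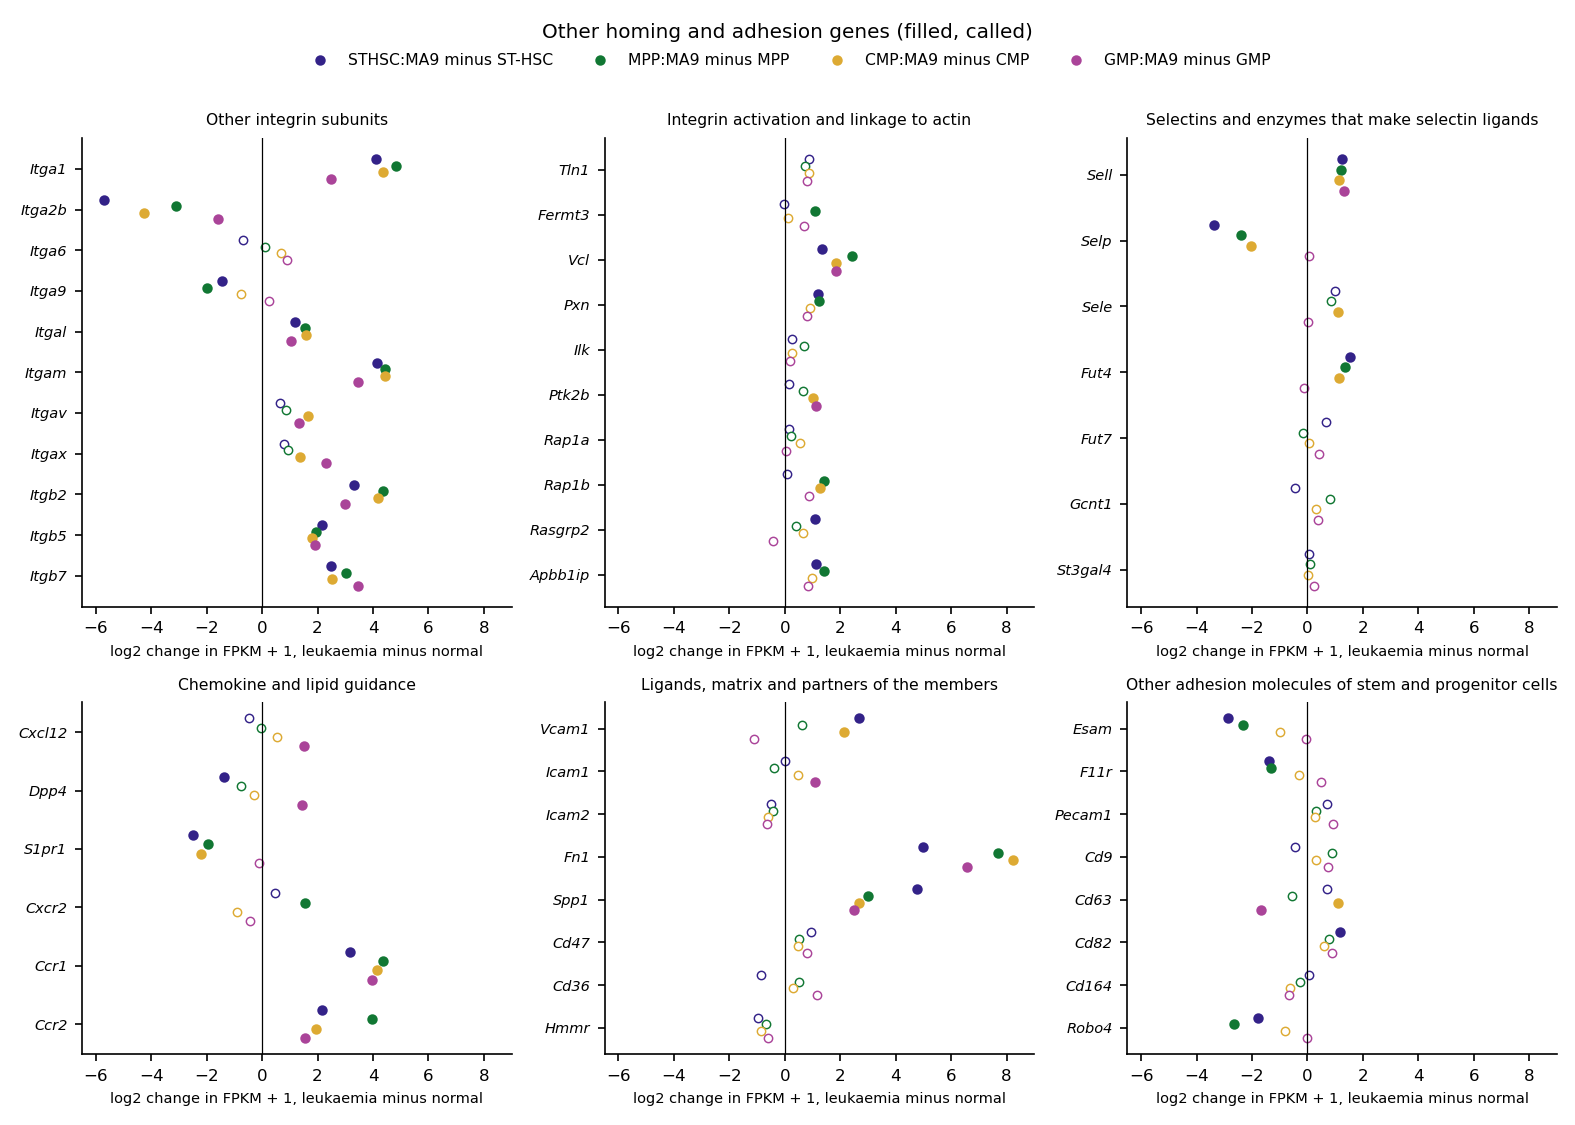
Log2 change of FPKM + 1 from the normal cell to the leukaemia for the 50 other homing and adhesion genes that passed the filter, by role, with 1 colour per leukaemia and filled points for calls. Fn1 lies farthest to the right, at 8.24 in CMP:MA9, and Itga2b farthest to the left, at -5.71 in STHSC:MA9.

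The genes whose log2 level was most like that of each of the 9 over all 49 samples are named as a description, since samples share groups and libraries. Cxcr4 was nearest to Ankrd44 (Pearson 0.97), Sirpa and Ap1s2 (0.96 each), and Cd44 to Pld4 (0.98), Rbms1 (0.98) and Cd68 (0.97). Selplg was nearest to BC013712 (0.96), Tnfaip8l2 (0.95) and Ifnar2 (0.95). For the integrins the nearest genes reached less: 3110043O21Rik, Gm608 and Slc38a9 for Itga4 (0.73 to 0.75), Ndst2, Necap2 and Tpp1 for Itga5 (0.84 each), Rrp15, Lars and Tcp1 for Itgb1 (0.72 to 0.74), and Srgap3, Plek and Itga6 for Itgb3 (0.70 to 0.76). Alcam was nearest to Spnb2 (0.87), Gm8995 (0.86) and Elmo1 (0.84), and Thbs1 to AA467197, Actn1 and Ly75 (0.80 to 0.81).

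Over the 19 leukaemias with group means subtracted, the nearest gene was Phka2 for Cxcr4 (0.93), Tlr9 for Selplg (0.95), E2f2 for Cd44 (0.84), Ly9 for Itga4 (0.88), Mbnl2 for Itga5 (0.87), Slc35d1 for Itgb1 (0.86), Slc18a1 for Itgb3 (0.92), Spna2 for Alcam (0.83) and Marcksl1 for Thbs1 (0.94). Among the 9 genes themselves, Thbs1 ran against Cxcr4 (-0.80), Itga4 (-0.69) and Itgb3 (-0.68) there, and the highest positive value was between Cxcr4 and Itga4 (0.56).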

How the data were processed

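The deposited FPKM values per gene were made by the authors with RSEM against mm9 from amplified cDNA without strand information; the authors tested counts with edgeR, which was not done here because only FPKM values were used. Of 68 columns, 49 matched sample labels and 19 were not used. Library totals are not given, and 0 pairs of samples were identical. Genes were placed with GENCODE M1 (NCBIM37, 33068 of 38253 identifiers matched). Fold changes are of log2(FPKM + 1), which understates changes of low genes. The filter kept genes averaging 1 FPKM or more across the samples entering a fit, and limma 3.58.1 gave the tests (R 4.3.3, trended empirical Bayes, all groups of a family in 1 fit: 8 groups for leukaemia against normal cell, 4 leukaemia groups, 6 normal groups), where p-values were adjusted by Benjamini-Hochberg over all genes tested. The script was tested on simulated data. Tables were handled with python 3.11.15 and pandas 2.3.3.

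The 9 genes, the list of 68 and the marker lists were chosen with earlier results of these data known. Named from the 68 were the 3 largest changes among the calls of each leukaemia and every call between leukaemias, and for each of the 9 genes the 3 genes most correlated with it over all samples and the 1 most correlated within leukaemias. Same-numbered LT-HSC and ST-HSC samples deviated together (correlations of 0.142 to 0.683 in all 5 pairs), and the labels do not say why. The main fits did not pair samples, and a replicate block was run only as an alternative. Correlations were also above 0 in all pairs for CMP against GMP (0.048 to 0.290) and for CMP:MA9 against CMP (0.048 to 0.107). Alternatives were a pseudocount of 0.1, no filter, median-ratio scaling, no limit of size, a replicate block, a correction for GC content and length, fits of only the groups compared, and leaving out single samples or the 4 with granulocyte RNA.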

Additional observations from a re-analysis of the deposited data

Results flagged for a closer look

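In 4 of 81 sets of a gene and a group of 4 to 6 samples, 1 sample lay far from the others by Dixon's criterion, which chance gives in about 1 in 20. They were Itga5 in CMP replicate 5 (17.31 FPKM, others 11.1 to 12.6), Itgb3 in ST-HSC replicate 1 (27.83, others 14.0 to 17.4), Thbs1 in LT-HSC replicate 4 (19.99, others 0.77 to 5.08) and Thbs1 in CMP:MA9 replicate 3 (15.91, others 1.12 to 1.73). The last 2 are the samples with the most granulocyte RNA in their groups.

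By the F test of limma, the 4 origins differed in how far the leukaemia lay from its normal cell for Cxcr4 (adjusted p = 0.0175), Itga4 (adjusted p = 0.0146), Itga5 (adjusted p = 0.000216), Itgb3 (adjusted p = 4.37e-05) and Alcam (adjusted p = 0.00894). These are 5 of 9 genes, beside 38% of all genes tested. Cxcr4 and Itga4 no longer passed with GC content and length corrected for. For Itgb3 the direction differed, lower in all 3 STHSC:MA9 samples and higher in 4 of 6 MPP:MA9 and 5 of 6 GMP:MA9 samples than in any sample of the normal cell.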

How the results depend on the processing

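The count of calls over the 4 comparisons of leukaemia with normal cell was 14 for the 9 genes and 94 for the other genes. Without the limit of size it was 22 and 146, leaving out single samples gave 12 to 16 and 91 to 96, and leaving out the 4 samples with granulocyte RNA gave 14 and 97. Over all 12600 genes, calls in the 4 comparisons went from 3045, 3412, 3508 and 2820 to 6101, 7871, 7538 and 7359 without that limit. No result changed direction. The 5 genes whose change differed by origin became 3 with GC content and length corrected for, with or without the replicate block (Itga5, Itgb3 and Alcam remained), and 7 without the 4 samples. The 1 call between leukaemias became 4 without the limit of size and 0 with no filter on low values, with the replicate block, and with the block and GC correction, and 0 to 3 without single samples. The 3 genes passing the F test between leukaemias became 1 with median-ratio scaling and 0 with no filter, the block, the GC correction, or both, and 0 to 3 without single samples. For the other genes the 3 calls between leukaemias became 15 without the limit of size, 5 with a pseudocount of 0.1, 1 with median-ratio scaling, 0 with the GC correction or with it and the block, and 1 to 16 without single samples, the highest without STHSC:MA9 replicate 1. Between normal cells 15 calls and 56 of the other genes became 24 and 113 without the limit of size. The cause of these differences was not tested.

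The replicate block changed no call of the 9 genes between LT-HSC and ST-HSC (0 with and without it). Against normal cells it gave 14 calls. The labels do not say that same-numbered samples are pairs in any comparison. Of single genes, Cd44 in GMP:MA9 fell to 0.98 with median-ratio scaling and 0.88 with the GC correction. Thbs1 in CMP:MA9 was called with the GC correction (1.47, adjusted p = 0.0416), with only the groups compared (adjusted p = 0.0454) and without any of 4 leukaemia samples. Itga5 in CMP against GMP (0.96) was called with a pseudocount of 0.1 (1.06) and without CMP replicate 3 (1.02). Median-ratio scaling moved the median of all genes by more than 0.1 in CMP:MA9 against CMP (from -0.16 to -0.01), CMP against GMP (from 0.20 to 0.01), CMP against MEP, LT-HSC against ST-HSC and ST-HSC against MPP. Higher calls went from 1641 of 3508 to 1923 of 3359, 982 of 1391 to 655 of 1244, 1174 of 1464 to 935 of 1343, 95 of 280 to 138 of 251 and 162 of 425 to 204 of 375 in these, from 50 of 349 to 71 of 287 in STHSC:MA9 against MPP:MA9, and from 169 of 270 to 119 of 231 in MPP:MA9 against GMP:MA9. Unknown depth leaves the precision of low genes such as Thbs1 in GMP unstated.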
